A study of Mus musculus with 15 samples.

Results

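The SLAM family is a group of cell surface receptors of the immunoglobulin superfamily, and its members Slamf1, Slamf6, Slamf7, Slamf8, Slamf9, Cd244 and Ly9 were followed here together with Cd48, the ligand of Cd244. The genes were chosen by their names, as a receptor family and its ligand, and their probe sets by the array annotation, with earlier results of these same arrays known, so the calls given for them are no independent evidence of a direction. Every probe set that the annotation gave to 1 of the 8 symbols alone was used, with no threshold on intensity, which left 13 of 45037 probe sets and 8 of 18193 annotated genes. Slamf1 and Slamf6 had 3 probe sets each, Cd244 (annotated as Cd244a) had 2, and the other 5 genes had 1. For a gene with several probe sets, the one with the highest mean over all arrays leads and the others are given beside it.

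Most SLAM family receptors bind a second copy of themselves on a neighbouring cell, while Cd244 binds Cd48, a membrane protein held by a lipid anchor. Tyrosine motifs in the cytoplasmic tails of most members recruit small adaptors of the SAP family, which link the receptor to the kinase Fyn, and without an adaptor the same tails can bind phosphatases. Slamf8 and Slamf9 have short tails without such motifs. The family is best known from T, B and natural killer cells, but in mouse macrophages Slamf7 has been linked to phagocytosis together with the integrin made of Itgam and Itgb2, and Slamf1 to phagosome maturation together with Becn1, Pik3c3 and Uvrag.

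The data were 15 microarrays of total RNA from wild-type C57Bl/6 mice at steady state. CMP, GMP, CDP and pre-cDC were sorted from bone marrow, with 2 arrays each. The gates were high CD117 with CD135 and without CD16/32 for CMP, high CD117 with CD16/32 and without CD135 for GMP, intermediate CD117 with CD135 for CDP, and low CD117 with CD135 and CD11c for pre-cDC. CMP, GMP and CDP are, by their usual names, the common myeloid, granulocyte-macrophage and common dendritic cell progenitors, and pre-cDC are precursors of classical dendritic cells. Whole bone marrow was grown for 7 days with 20 ng/ml of GM-CSF or M-CSF, and 1 array each held the non-adherent CD11c+ cells with GM-CSF, the adherent cells with GM-CSF and the adherent cells with M-CSF. Bone marrow monocytes purified by negative selection were sampled at 0, 24 and 48 h of GM-CSF at the same dose, with 1 array each, and per the labels most of them carried CD11b and Ly6C. A last array was titled as pre-cDC of Spl, with no sort of its own described. Whether the 2 arrays of a progenitor hold different animals is not in the labels, and the p-values given here cover only the spread between those arrays.

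Intensities stood on 4 scales, with array medians of 15.95 to 17.44 for progenitors, 24.09 to 25.66 for cultures, 77.73 to 80.53 for monocytes and 74.17 for the Spl array, so the same probe set was compared within a set of arrays. Replicate arrays correlated at 0.994 to 0.996 across probe sets on the log2 scale. Gate genes followed the sorts: Kit, which encodes CD117, lay between 1210 and 1229 in CMP, 905 and 1085 in GMP, 335 and 368 in CDP and 36.3 and 36.8 in bone marrow pre-cDC. On the Spl array Kit was at 1105 on the scale of that array, so it is treated apart at the end. Differences are given as log2(intensity + 32), a scale on which changes of dim probe sets look smaller. A progenitor difference was called at an adjusted p under 0.05 by limma over all 45037 probe sets, and a difference between single arrays at 4-fold or more on that scale, with the brighter value above the median of its array. In bulk samples, fewer cells of a type and less RNA per cell cannot be told apart.

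Where the 8 genes lie and what their promoters hold was set out first, because 4 of them changed most across the arrays. All 8 genes were on mouse chromosome 1 in the RefSeq order of genes, 6 of them in a run with Cd84 and the pseudogene Tma7-ps between them, and Slamf9 and Slamf8 farther on. RefSeq (GRCm38.p6) held a promoter window, 250 bases before to 50 bases after the gene start, for 7 of the 8. The windows of Slamf7, Slamf8, Slamf9 and Cd244 are shown because these genes carry the largest differences between pre-cDC, cultures or monocytes. They lie at chr1:171648950-171649249 on the minus strand for Slamf7, chr1:172590519-172590818 on the minus strand for Slamf8, chr1:172475110-172475409 on the plus strand for Slamf9 and chr1:171558943-171559242 on the plus strand for Cd244. Each is written 5′ to 3′ along its gene, and capitals mark matches to the motifs searched.
Slamf7: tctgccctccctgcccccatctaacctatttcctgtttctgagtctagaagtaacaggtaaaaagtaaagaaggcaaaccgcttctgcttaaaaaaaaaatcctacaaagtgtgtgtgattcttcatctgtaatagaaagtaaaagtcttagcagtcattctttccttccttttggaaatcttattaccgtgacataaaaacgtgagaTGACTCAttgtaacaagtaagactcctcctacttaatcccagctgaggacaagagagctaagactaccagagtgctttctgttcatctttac
Slamf8: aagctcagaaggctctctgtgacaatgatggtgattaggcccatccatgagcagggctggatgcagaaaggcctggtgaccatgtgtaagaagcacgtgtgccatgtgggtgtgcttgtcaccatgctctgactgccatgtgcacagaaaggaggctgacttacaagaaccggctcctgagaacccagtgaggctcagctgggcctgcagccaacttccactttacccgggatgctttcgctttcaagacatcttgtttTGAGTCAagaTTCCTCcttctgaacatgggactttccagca
Slamf9: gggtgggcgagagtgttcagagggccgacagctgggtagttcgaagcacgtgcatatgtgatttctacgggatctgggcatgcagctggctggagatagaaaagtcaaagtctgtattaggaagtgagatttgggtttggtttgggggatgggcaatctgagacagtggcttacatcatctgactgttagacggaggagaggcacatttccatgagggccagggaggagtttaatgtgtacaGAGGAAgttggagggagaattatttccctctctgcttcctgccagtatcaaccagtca
Cd244: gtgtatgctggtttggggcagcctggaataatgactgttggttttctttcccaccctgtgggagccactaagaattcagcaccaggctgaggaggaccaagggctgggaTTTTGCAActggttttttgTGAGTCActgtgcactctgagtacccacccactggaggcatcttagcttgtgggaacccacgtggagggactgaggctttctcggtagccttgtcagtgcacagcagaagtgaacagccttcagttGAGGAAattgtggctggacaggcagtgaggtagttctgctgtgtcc

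Motifs of myeloid transcription factors were searched on both strands of all 32851 promoter windows. The AP-1 letters TGANTCA were found in 3 of the 7 member windows, against 7.81% of all windows. They started 42 bases before the gene start in Slamf7, 122 bases before it in Cd244, and at base 10 after it in Slamf8. These letters read the same on both strands. The PU.1 letters GAGGAA were also in 3 of the 7, those of Cd244, Slamf9 and Slamf8, against 28.3% of all windows. The C/EBP letters TTGCNNAA were in Cd244 (10.8% of all windows), on the opposite strand, so the window reads TTTTGCAA there. The RUNX letters TGTGGT were in Cd48 (16.8%). The composite Ets-IRF letters GGAANNGAAA (2.72% of all windows) and the STAT letters TTCNNNGAA (8.3%) were in none of the 7. In the Slamf8 window the PU.1 match is on the opposite strand and does not overlap the AP-1 match. These matches describe letters in a window and were not tested as sites.

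Slamf7 was the member that differed most between progenitors. Its intensity was 7.72 and 6.14 in CMP, 6.80 and 5.43 in GMP, 49.8 and 39.4 in CDP, and 1152 and 1457 in bone marrow pre-cDC. Both pre-cDC arrays lay far above both CDP arrays, and these in turn above all CMP and GMP arrays, which lay below the median of their array. Slamf7 was higher in pre-cDC than in CDP by 4.12 on the log2 scale (SE 0.127, adjusted p = 9.63e-10 by limma). CDP already exceeded CMP by 0.97 (adjusted p = 0.000408 by limma), whereas GMP and CMP were not separated (log2 difference -0.03, adjusted p = 0.927 by limma). Slamf7 is a self-binding receptor of natural killer, plasma and myeloid cells.

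Slamf8 and Slamf9, the members with short tails, reached their highest progenitor values in pre-cDC as well. Slamf8, which in mice restrains the oxidative burst of macrophages, was at 65.1 and 79.2 in pre-cDC, against 8.65 and 4.49 in CDP. Only the pre-cDC arrays lay above the array median, and the difference was 1.43 (SE 0.0887, adjusted p = 1.72e-07 by limma). Slamf9 was at 14.1 and 15.9 in pre-cDC, against 4.23 and 5.33 in CDP, a called difference of 0.35 (SE 0.0612, adjusted p = 0.000827 by limma). The groups did not overlap, but all 8 progenitor values of Slamf9 were below the median of their array. CMP, GMP and CDP were not separated for either gene, with adjusted p of 0.454 or more by limma for the leading probe sets.

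Cd48 and its receptor Cd244 shared 1 order of levels across the progenitors, highest in pre-cDC and lowest in GMP. Means of Ly9 ran in the same order, at 61.5 in GMP, 79.0 in CMP, 120 in CDP and 243 in pre-cDC. Those of Slamf7 did too, although its GMP and CMP arrays overlapped, so the order was not particular to the pair. Cd48 was at 1471 and 1604 in CMP, 1169 and 993 in GMP, 2045 and 1966 in CDP, and 4195 and 3866 in pre-cDC. No 2 groups overlapped, and Cd48 was above the array median on all 15 arrays of the series. It was higher in pre-cDC than in CDP by 0.99 (SE 0.0912, adjusted p = 4.89e-06 by limma) and higher in CDP than in GMP by 0.88 (adjusted p = 2.15e-05 by limma).

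Cd244, the receptor called 2B4 on natural killer cells, was at 48.3 and 70.3 in CMP, 14.1 and 15.4 in GMP, 97.3 and 90.9 in CDP, and 223 and 230.3 in pre-cDC. The GMP arrays were the only progenitor arrays with Cd244 below the array median. Cd244 was higher in pre-cDC than in CDP by 1.04 (SE 0.122, adjusted p = 3.99e-05 by limma), and its second probe set was higher by 1.23 (adjusted p = 4.76e-05 by limma). Pre-cDC and GMP stood 2.47 apart (adjusted p = 7.27e-09 by limma), and CDP exceeded GMP by 1.43 (adjusted p = 4.2e-06 by limma).

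In GMP, both Cd48 and Cd244 were lower than in CMP. Cd244 fell by 0.96 on the log2 scale (adjusted p = 0.000227 by limma), its second probe set by 0.67 (adjusted p = 0.00949), and Cd48 by 0.50 (adjusted p = 0.00298). The Cd48 call was lost without the second CMP array, where the adjusted p by limma was 0.0537. Ly9, a self-binding receptor of lymphocytes, had 64.4 and 58.5 in GMP, against 70.3 and 87.6 in CMP, and was not called (adjusted p = 0.295 by limma). Neutrophil markers were called higher in GMP in 4 of 7 genes and lower in 1, with sums of 3021 to 3550 in GMP, against 244 to 276 in CMP. Mast cell and basophil markers were higher in 4 of 6 and lower in 1, with sums of 923 to 1114 in GMP, against 321 to 324 in CMP. Stem cell markers were lower in 6 of 6, with sums of 1590 to 1598 in GMP, against 3429 to 4073 in CMP, and plasmacytoid dendritic cell markers in 3 of 7. Natural killer markers were higher in 1 of 6 and lower in 1. Their sums were 1822 to 1878 in GMP, with only 1 gene above the array median, against 406 to 494 in CMP and 393 to 438 in CDP. In CDP against GMP, neutrophil markers were lower in 4 of 7 and higher in 1, and mast cell and basophil markers lower in 5 of 6. Erythroid markers were lower in 4 of 5, with sums of 133 to 193 in CDP, against 2496 to 4441 in GMP. Plasmacytoid dendritic cell markers were higher in 7 of 7, with sums of 2600 to 2718 in CDP, against 688 to 714 in GMP. The part of such cells in the Cd48 and Cd244 differences was not tested.

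The calls of Cd48 and Cd244 between CDP and CMP depended on single arrays. Cd48 was called higher in CDP by 0.38 (adjusted p = 0.0216 by limma) and Cd244 by 0.48 (adjusted p = 0.0298 by limma). Both calls were lost without either CDP array and without the first CMP array, where the differences were 0.32 for Cd48 (adjusted p = 0.193 by limma) and 0.30 for Cd244 (adjusted p = 0.281 by limma). Cd48 also lost its call without the second CMP array, at a difference of 0.44 (adjusted p = 0.060), and after quantile normalization (adjusted p = 0.0559), and Cd244 without either GMP array, at the same difference of 0.48 (adjusted p of 0.0591 for each). Ly9 differed by 0.45 with an adjusted p of 0.0518 by limma, and passed the threshold in several other fits. Stem cell markers were lower in CDP than in CMP in 6 of 6 measured genes, with sums of 2360 to 2404 in CDP, against 3429 to 4073 in CMP, erythroid markers in 4 of 5, and plasmacytoid dendritic cell markers were higher in 5 of 7, and their part in these differences was not tested.

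Ly9 was highest in pre-cDC, at 263 and 222, against 134 and 107 in CDP. The groups did not overlap, and the difference was 0.85 (SE 0.132, adjusted p = 0.000351 by limma). Ly9 was also above the array median on all 15 arrays. CDP exceeded GMP by 0.70 (adjusted p = 0.00191 by limma).

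Slamf1, a receptor that in mice marks haematopoietic stem cells, and Slamf6, a receptor of T, B and natural killer cells, stayed dim in all progenitors. The leading probe set of Slamf1 ran from 8.59 to 16.4 over the 8 arrays and that of Slamf6 from 10.6 to 17.2, each above the array median on 1 of the 8. None of their leading probe sets was called in any progenitor comparison. The third probe set of Slamf1 was called lower in pre-cDC than in CMP by 0.18 (adjusted p = 0.0174 by limma), at means of 1.22 in pre-cDC and 5.67 in CMP, both far below the array median.

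Over the 13 probe sets, 7 were called higher and 0 lower in pre-cDC than in CDP, belonging to 6 of the 8 genes, with a median log2 difference of 0.35. Over all 45037 probe sets, 11.7% were called higher and 12.9% lower, with a median of 0.00. Against CMP, pre-cDC had 7 higher and 1 lower (background 17.5% higher and 16.6% lower), and against GMP 7 higher and 0 lower (background 21.3% and 17.1%). CDP had 4 higher and 0 lower than CMP (background 5.24% and 3.72%) and 5 higher and 0 lower than GMP (background 15.3% and 8.62%). GMP had 0 higher and 3 lower than CMP (background 4.73% and 7.69%). After quantile normalization the share of all calls that were higher was 49.9% for GMP against CMP, 47.0% for CDP against CMP and 49.1% for CDP against GMP, where it had been 38.0%, 58.5% and 63.9%. These comparisons share arrays, and the members were chosen with such results known, so the counts are descriptions.

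**Figure D1:**
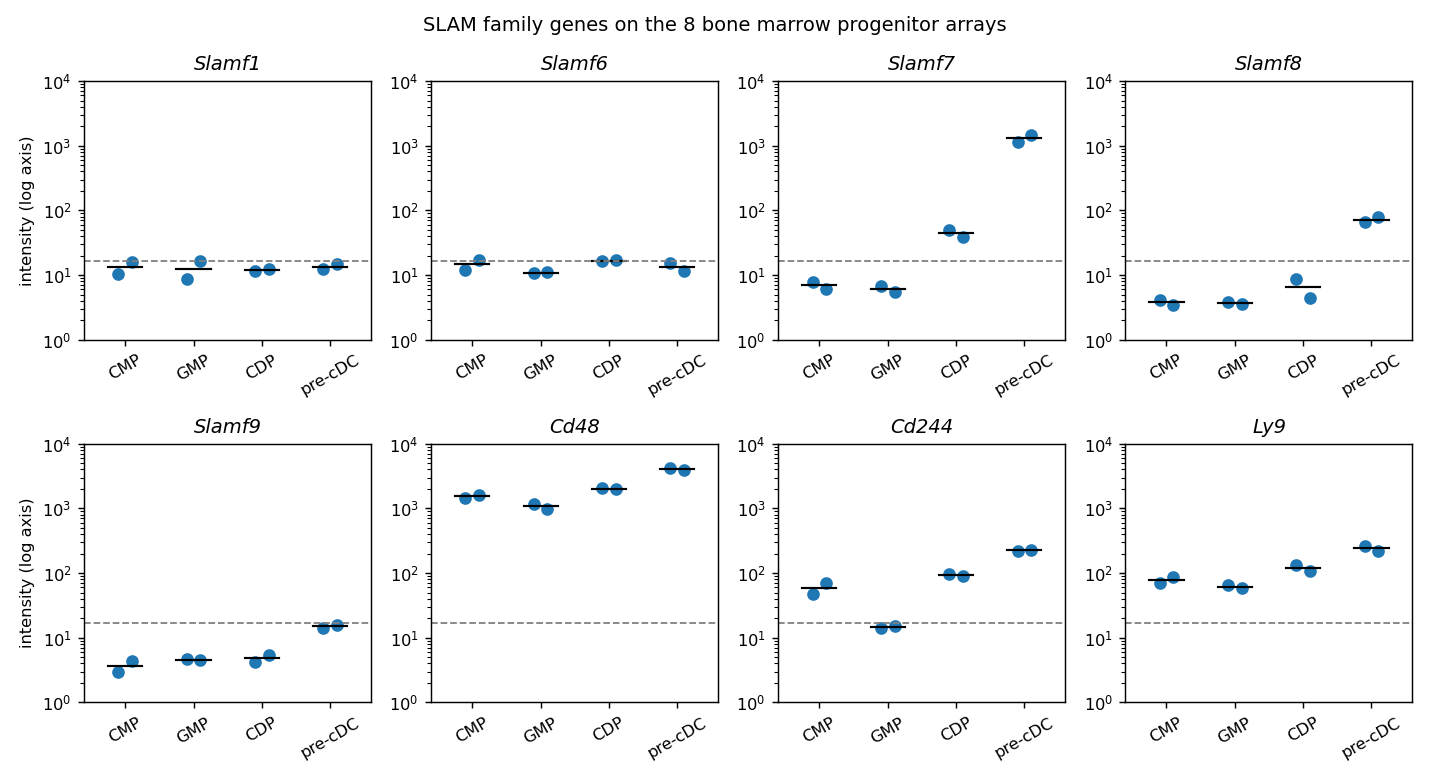
Intensity (log axis) of the leading probe set of each gene on the 8 bone marrow progenitor arrays. Points are arrays, bars are means of 2 and the dashed line is the mean array median. Slamf7 stands between 1152 and 1457 in pre-cDC, against 39.4 to 49.8 in CDP, while Slamf1 and Slamf6 stay near or below the dashed line.

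Marker genes of cells that carry SLAM receptors were read beside these results. The 8 T cell markers summed to 104 to 107 in pre-cDC, against 78.9 to 84.9 in CDP, with 1 called higher and 1 lower, and 2 of the 8 lay above the array median on both pre-cDC arrays. Cd3e, which defines T cells, was at 7.06 and 12.8 in pre-cDC, below it. The 5 measured B cell markers summed to 186 to 224 in pre-cDC, against 292 to 319 in CDP. The 6 measured natural killer markers summed to 1465 to 1746 in pre-cDC, against 393 to 438 in CDP, of which Klrd1 alone gave 1439 and 1709 in pre-cDC, while Ncr1, which defines these cells, was at 4.65 and 3.25.
Plasmacytoid dendritic cell markers were called higher in 5 of 7 genes and lower in 2, with sums of 5099 to 5204 in pre-cDC, against 2600 to 2718 in CDP. Of the 7 macrophage markers 3 were called higher, with sums of 1131 to 1349 in pre-cDC, against 220 to 240 in CDP. Stem cell markers were lower in 3 of 6, with sums of 128 to 168 in pre-cDC, against 2360 to 2404 in CDP. Neutrophil markers were lower in 3 of 7 and higher in 1, with sums of 316 to 352 in pre-cDC, against 352 to 464 in CDP. The part of such cells in the member differences was not tested.

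In the 7-day cultures, Cd244 was brighter with GM-CSF than with M-CSF in both pairs, past 4-fold on its leading probe set, and Slamf8 was dimmer, past 4-fold for CD11c+ cells. Cd244 was at 313 in GM-CSF CD11c+ cells and 345 in GM-CSF adherent cells, against 47.5 in M-CSF adherent cells. The log2 differences from M-CSF were 2.12 and 2.25, and the second probe set, at 134, 180 and 17.8 in the same order, differed by 1.74 and 2.09. Slamf8 was at 252 in GM-CSF CD11c+ cells and 593 in GM-CSF adherent cells, against 1414 in M-CSF adherent cells, with log2 differences of -2.35, past 4-fold, and -1.21, which was not. The CD11c+ cells were non-adherent and the M-CSF cells adherent, so in that pair the cytokine and the cell fraction cannot be told apart. Between CD11c+ and adherent cells of the GM-CSF culture, Slamf8 differed by -1.14 and the leading probe set of Cd244 by -0.13. With 1 array for each culture there is no replicate check, and no p-value is given.

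Slamf6 was brighter with GM-CSF on its leading probe set, at 110 in CD11c+ and 76.6 in GM-CSF adherent cells, against 10.2 in M-CSF adherent cells, log2 differences of 1.76 and 1.36 that stayed under 4-fold. Its other probe sets did not show this: they read 35.1, 44.1 and 32.7, and 3.93, 12.01 and 15.03, in the same order. The Slamf6 probe sets thus disagreed, and no direction is given for the gene. Slamf7 was at 1019 in CD11c+, 826 in GM-CSF adherent and 519 in M-CSF adherent cells. Slamf9, a receptor of myeloid cells, was at 1502, 1685 and 1280 in the same cells.

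The remaining culture values lay closer together or ran the other way. Cd48 was at 2560 in CD11c+, 3113 in GM-CSF adherent and 3741 in M-CSF adherent cells, and Ly9 at 964, 1233 and 1955. Slamf1 was at 97.1, 41.1 and 46.3. None of these reached 4-fold in any pair of cultures.

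For GM-CSF adherent against M-CSF adherent cells, 2 of the 13 probe sets were called higher, both of Cd244, and 0 lower, with a median of -0.04 and a background of 0.697% higher and 0.222% lower. For GM-CSF CD11c+ against M-CSF adherent cells, 1 was called higher and 1 lower (background 1.2% and 0.533%). For GM-CSF CD11c+ against GM-CSF adherent cells, 0 were called in either direction (background 0.333% and 0.0777%). With 64 added before the logarithm instead of 32, Cd244 no longer reached 4-fold against M-CSF, at 1.76 for CD11c+ and 1.87 for GM-CSF adherent cells. Neutrophil markers moved between these arrays: their 7 genes summed to 7822 in CD11c+, 29227 in GM-CSF adherent and 10984 in M-CSF adherent cells, and their part in the member values was not tested. Macrophage markers summed to 26206, 26981 and 38925 in the same order.

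Monocytes kept with GM-CSF changed most in Slamf9. Its intensity was 180 at 0 h, 3191 at 24 h and 4664 at 48 h, a log2 difference of 3.93 at 24 h and 4.47 at 48 h against 0 h. Slamf7 was at 150, 341 and 1101, and was past 4-fold only at 48 h (2.64 against 0 h). Both genes had their highest monocyte value at 48 h.

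Slamf1 was at 82.1 at 0 h, 150 at 24 h and 482 at 48 h, 2.17 higher at 48 h than at 0 h. Its second probe set read 1.40, 56.4 and 115 (2.13 higher at 48 h) and the third read 8.16, 18.0 and 37.2, so all 3 ran upward, although the last stayed below the array median. With 64 added before the logarithm, the leading Slamf1 difference was 1.90 and fell short of 4-fold. Slamf8 was at 1447, 4541 and 4268 at the same times, 1.63 higher at 24 h than at 0 h and under 4-fold.

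The ligand pair did not keep to 1 direction in time. Cd48 was at 6903 at 0 h, 4468 at 24 h and 7320 at 48 h, and Cd244 at 1341, 590 and 1920, so both were lowest at 24 h. Ly9 was at 680, 204 and 225, a log2 difference of -1.60 at 24 h against 0 h, short of 4-fold. Slamf6 stayed at 285, 337 and 334.

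Of the 13 probe sets, 1 was called higher at 24 h than at 0 h, that of Slamf9, and 0 lower (background 1.31% higher and 1.79% lower). At 48 h against 24 h, 0 were called (background 0.417% and 0.0511%). At 48 h against 0 h, 4 were called higher, of Slamf9, Slamf7 and Slamf1, and 0 lower (background 1.97% and 1.44%), with a median log2 difference of 0.71 over the 13. The median over all probe sets was -0.02. Macrophage markers rose past 4-fold in 4 of 7 genes over the same time, with sums of 26022 at 48 h, against 16142 at 0 h, and neutrophil markers fell past it in 3 of 7, with sums of 6766 at 48 h, against 20150 at 0 h. T cell markers summed to 377 at 48 h, against 658 at 0 h. Megakaryocyte markers summed to 10988 at 48 h, against 186 at 0 h, with 2 of 4 past 4-fold. Stem cell markers summed to 4848 at 48 h, against 626 at 0 h, with 2 of 6 past it. Most of that sum came from Procr, at 3769 at 48 h, while Cd34 was at 914, against 186 at 0 h. Only 2 of the 6 lay above the array median at either time, and their median log2 difference was -0.01. Erythroid markers summed to 5787 at 48 h, against 1741 at 0 h, with 1 of 5 past 4-fold. Whether such cells were present, and their part in the member values, was not tested.

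**Figure D2:**
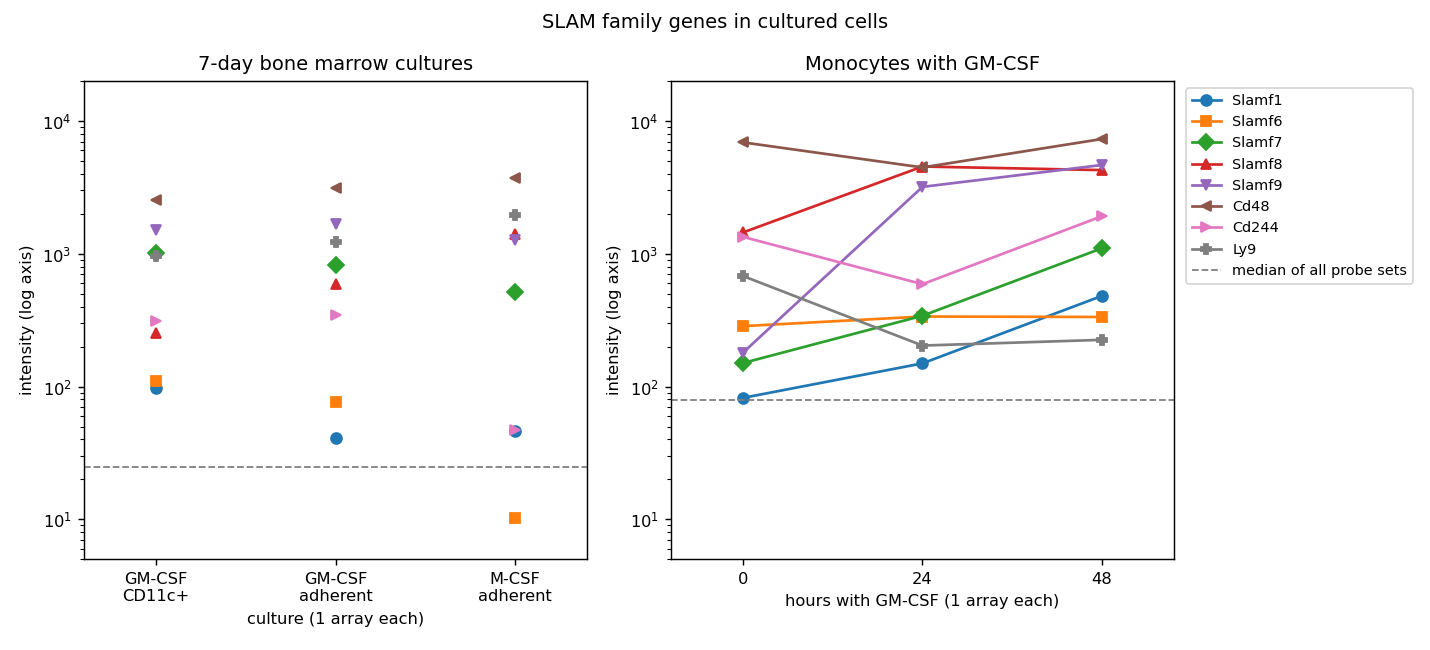
Intensity (log axis) of the leading probe set of each gene in the 3 bone marrow cultures (left) and in monocytes after 0, 24 and 48 h with GM-CSF (right). Each point is 1 array, lines join the time points and the dashed line is the mean array median. Slamf9 climbs to 4664 at 48 h, against 180 at 0 h, and Cd244 is lowest in M-CSF adherent cells at 47.5.

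**Figure D3:**
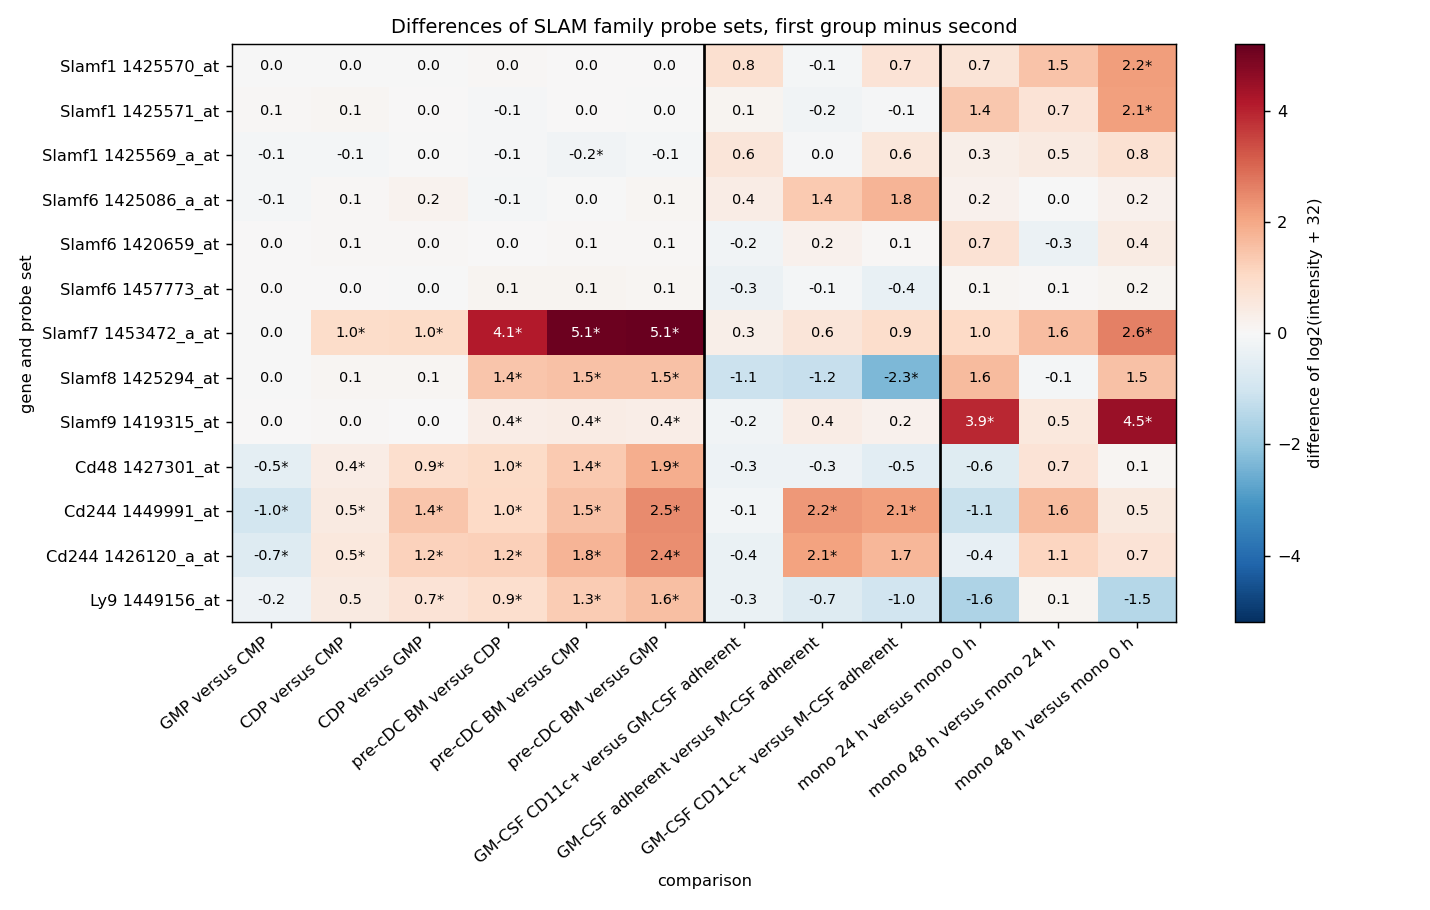
Difference of log2(intensity + 32), first group minus second, for the 13 probe sets (rows) in 12 comparisons (columns). Columns left of the first black line are progenitors, then come cultures and monocytes. A star marks an adjusted p under 0.05 by limma for progenitors and 4-fold or more for single arrays, and the highest values are those of Slamf7 in pre-cDC and of Slamf9 in monocytes.

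The array titled pre-cDC of Spl was set against the bone marrow pre-cDC arrays after scaling it by 0.230 to their median. Slamf9 was then at 101 on the Spl array, against 14.1 and 15.9 in bone marrow pre-cDC, a log2 difference of 1.5 that became 2.49 after quantile normalization. Ly9 was at 36.0, against 263 and 222, a difference of -2.01 (-1.61 after quantile normalization), and Slamf8 at 23.4, against 65.1 and 79.2 (-0.91 and -0.83). For these 3 genes the direction was the same under both scalings.

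For the leading probe sets of others the size, but not the sign, moved with the scaling. Cd48 was at 943 on the scaled Spl array, against 4195 and 3866 in bone marrow pre-cDC, a difference of -2.06 that shrank to -0.50 after quantile normalization. Slamf7 was at 332, against 1152 and 1457, with -1.87, or -0.36 after quantile normalization. Cd244 differed by 0.03 on its leading probe set, or by 1.31 after quantile normalization. Its second probe set differed by -0.885, or by 0.085 after quantile normalization, so its sign changed and no direction is given for Cd244. Of the 13 probe sets 0 were called higher and 2 lower, those of Cd48 and Ly9 (background 0.213% and 3.54%). Both calls were lost after quantile normalization, at -0.50 for Cd48 and -1.61 for Ly9, and without the first bone marrow pre-cDC array, at -1.97 for Cd48 and also just short of 4-fold for Ly9. That of Ly9 was also lost with 64 added before the logarithm (-1.61). The median of all probe sets stood at -0.10, and at -0.03 after quantile normalization. On this array, on its own scale, plasmacytoid dendritic cell markers summed to 10513, with 7 of 7 above the array median, as on both bone marrow pre-cDC arrays. The natural killer markers summed to 5735, but only 1 of 6 was above the median, and Klrd1 alone gave 5523. The B cell markers summed to 3192, with 2 of 5 above it. Kit was at the level given above. With 1 array on another scale, the source of the cells and the array itself cannot be told apart.

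The family members outside the 8 genes and the signalling partners were read from lists of SLAM signalling genes. Cd84, the self-binding receptor encoded between Slamf1 and Slamf6, was lower in CDP and pre-cDC than in CMP and GMP. It was at 33.4 and 45.3 in CDP, against 70.2 and 83.1 in CMP, a difference of -0.61 (adjusted p = 0.0068 by limma), and at 38.6 and 29.8 in pre-cDC, against 92.9 and 84.9 in GMP (-0.87, adjusted p = 6.6e-05 by limma). Pre-cDC and CDP were not separated for Cd84 (adjusted p = 0.598 by limma). In cultures Cd84 was at 4867 in CD11c+, 6153 in GM-CSF adherent and 7098 in M-CSF adherent cells, and in monocytes at 3930, 3910 and 5041 at 0, 24 and 48 h. Cd2, which also binds Cd48 in rodents, and the adaptor Sh2d1a, known as SAP, were below the array median on all 15 arrays. Sh2d1b1 and Sh2d1b2, the other adaptors of that family, were not analysed here.

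Of the 35 listed genes 30 were measured. In pre-cDC against CDP, 16 were called higher and 2 lower, with a median of 0.36, beside 11.7% higher and 12.9% lower over all probe sets. Listed genes are read by leading probe sets alone, so backgrounds over all probe sets are no like-for-like share here. With 1 probe set a gene, 6041 of 18193 genes were called in either direction. Itgb2 and Itgam are the integrin chains that partner Slamf7 in mouse macrophages. Itgb2 averaged 2154 in pre-cDC and 228 in CDP (log2 difference 3.08, adjusted p = 9.17e-09 by limma), and Itgam 231 in pre-cDC and 53.9 in CDP (1.61, adjusted p = 1.21e-06 by limma). The Src family kinase Fgr averaged 207 in pre-cDC and 24.1 in CDP (2.10, adjusted p = 3.16e-08 by limma).
Fcer1g, the signalling chain of Fc receptors, was higher in pre-cDC than in CDP by 1.13 (adjusted p = 5.47e-06 by limma), and Fyn by 1.10 (adjusted p = 1.56e-05 by limma). Plcg1, a phospholipase, fell by 1.12 (adjusted p = 1.09e-05 by limma), whereas the related Plcg2 was higher by 1.08 (adjusted p = 5.75e-06 by limma). By group, 4 of 5 measured kinases, 3 of 4 phosphatases, 4 of 11 downstream genes and 5 of 7 partners were called higher, and both genes called lower, Plcg1 and Dok2, were downstream genes. CDP against CMP gave 9 higher and 2 lower (background 5.24% and 3.72%), and GMP against CMP 2 higher and 6 lower (background 4.73% and 7.69%). In both, the balance of higher and lower calls over all probe sets moved with quantile normalization, as given above.

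**Figure D4:**
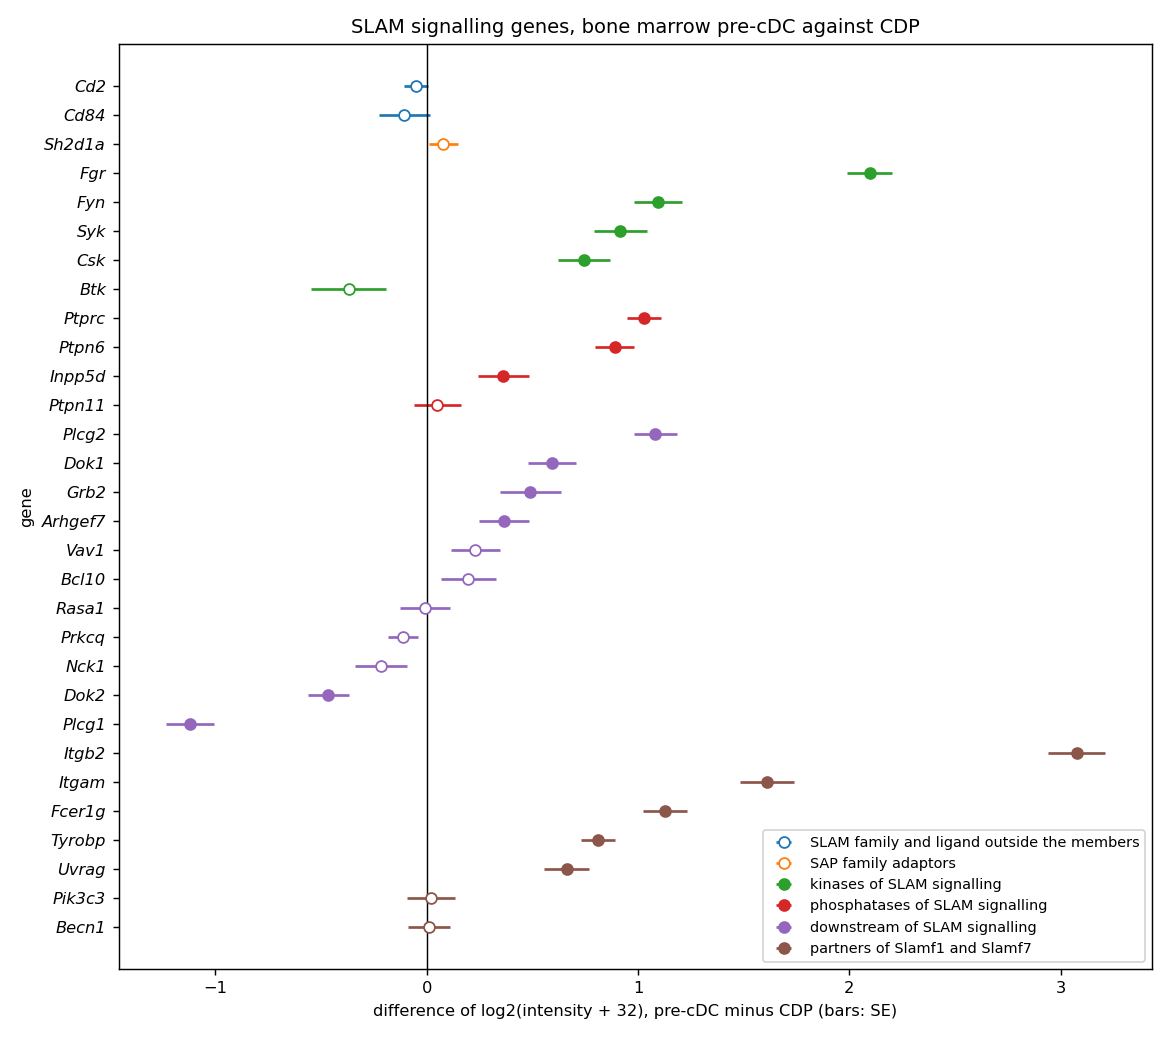
Difference of log2(intensity + 32), pre-cDC minus CDP, for the 30 measured SLAM signalling genes outside the 8 members, coloured by group, with SE from limma. Filled points have an adjusted p under 0.05. Itgb2 stands farthest right at 3.08 and Plcg1 farthest left at -1.12.

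Single genes of these lists also stood apart in the cultured cells. Fgr was at 702 in CD11c+ and 765 in GM-CSF adherent cells, against 43.0 in M-CSF adherent cells (3.29 and 3.41), and it was the 1 listed gene called higher in both pairs. Rasa1, a GTPase-activating protein for Ras, was lower in CD11c+ than in M-CSF adherent cells (-2.28). In monocytes, Dok2, an inhibitory adaptor of myeloid cells, was at 4438 at 24 h and 5392 at 48 h, against 105 at 0 h, and Fyn was at 2700 at 48 h, against 649 at 0 h (2.004).

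The 18 genes next to or between the members on chromosome 1, of which 15 were measured, moved in both directions. In pre-cDC against CDP, 3 were called higher and 3 lower, with a median of -0.03, beside 11.7% higher and 12.9% lower over all probe sets. These genes too were read by leading probe sets alone, so that background is no like-for-like share. Vangl2, which lies beyond Slamf6, was at 127 and 135 in pre-cDC, against 48.7 and 38.0 in CDP (1.12, adjusted p = 1.44e-05 by limma). Igsf9, the gene after Slamf9, was at 399 at 24 h and 534 at 48 h in monocytes, against 6.67 at 0 h, log2 differences of 3.48 and 3.87. F11r, which lies before Cd244 with Alyref2 and Itln1 between them, was at 1182 in CD11c+ and 744 in GM-CSF adherent cells, against 36.9 in M-CSF adherent cells.

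Genes with the most similar pattern were ranked by Pearson correlation over 14 arrays, centred within progenitors, cultures and monocytes, among 14118 genes. The correlations describe 14 arrays that share their source and their scale sets. Igsf9 came first for Slamf9 (0.996) and Hr second (0.994), and Itprid2 (0.992) and Chmp2a (0.985) for Slamf7. For Slamf8 they were Ckb (0.966) and Cdk14 (0.957), for Cd48 Nav1 (0.983) and Dock2 (0.971), and for Cd244 Gpcpd1 (0.955) and Capn15 (0.950). Ly9 was closest to Rgs2 (0.975) and Racgap1 (0.970), Slamf1 to Ccnb1ip1 (0.982) and Crem (0.979), and Slamf6 to Tns4 (0.971) and Klk1b27 (0.967). Among the members themselves, Slamf7 and Cd48 correlated at 0.84, as did Cd48 and Ly9, and the lowest value was -0.50 between Slamf6 and Slamf8.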

How the data were processed

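The deposited series table gives linear intensities for 45037 probe sets of a 3' expression array labelled with the 3' IVT Express Kit, per the labels' protocols; the software that made these intensity values and their scaling are not given in the sources used here. Genes were named from the platform annotation, with 34945 probe sets having 1 gene, 932 several and 9160 none, and none of a probe set with several genes was used. Values were taken as log2(intensity + 32). The 8 bone marrow progenitor arrays went into 1 limma fit (version 3.58.1 in R 4.3.3, empirical Bayes with an intensity trend) with 4 residual degrees of freedom, 12.2 after moderation, and Benjamini-Hochberg adjustment over all probe sets of each contrast. The fit was tested on simulated data. Cultures, monocytes and the Spl array have 1 array each and no test. The number of arrays limits the precision.

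Members, gene lists and tests were chosen with earlier results of these data known. Named were all members, Cd84, Cd2 and the SAP adaptors, up to 4 called genes of the other signalling lists with the largest differences in a comparison, the 2 genes most correlated with each member, and genes neighbouring the members; Plcg1, Plcg2, Fyn and Dok2 in pre-cDC against CDP, and single marker genes, were chosen after their values were seen. Alternatives were a pseudocount of 16 or 64, quantile normalization, no intensity trend, dim probe sets left out, 1 probe set a gene, a replicate block, each array left out, and 2-fold in place of 4-fold. A planned search of protein sequences was not run.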

Additional observations from a re-analysis of the deposited data

How the results depend on the processing

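No called difference of a leading probe set changed sign under the alternatives run; uncalled ones near 0 of Slamf1, Slamf6, Slamf8 and Slamf9 did so when single arrays were left out. Keeping 1 probe set a gene left 8013, 7670 and 6041 called probe sets for pre-cDC set against GMP, CMP and CDP, where all probe sets gave 17287, 15360 and 11075. It left 5090 and 2626 for CDP set against GMP and CMP, where all gave 10750 and 4039, and 3049 for GMP set against CMP, where all gave 5593, since fewer were tested. Quantile normalization left 2 called member probe sets for CDP against CMP, against 4; the cause was not tested. Leaving out each array in turn gave 7, 7 to 8 and 7 called member probe sets for pre-cDC set against GMP, CMP and CDP, 5 and 1 to 5 for CDP set against GMP and CMP, and 1 to 3 for GMP set against CMP. Over all probe sets, in the same order, it gave 13702 to 17827, 12087 to 15902, 7994 to 10414, 6623 to 11005, 1859 to 4200 and 2535 to 6075 calls.

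At 2-fold, 1 member probe set passed for GM-CSF CD11c+ against GM-CSF adherent cells, 4 for GM-CSF adherent and 4 for CD11c+ against M-CSF adherent cells, 5 for monocytes at 24 h against 0 h and 4 at 48 h against 24 h, by construction more than at 4-fold. A pseudocount of 64 left 0 for GM-CSF adherent and 1 for CD11c+ against M-CSF adherent cells and 2 at 48 h against 0 h, and a pseudocount of 16 gave 4 for CD11c+ against M-CSF adherent cells, where Slamf6 reached 2.27.

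The labels do not say whether the numbers 1 and 2 in the titles pair the arrays. The deviations of same-numbered arrays correlated at 0.02 to 0.26, all positive, which cannot settle whether they are paired. With the number as a replicate block, 3 member probe sets were called for GMP against CMP and 5 for CDP against CMP. Ly9 passed in the latter (adjusted p = 0.0327 by limma), and the block changed no other call of a leading probe set. Over all probe sets the block gave more calls in every progenitor comparison. It gave 6744 for GMP against CMP, where the main fit gave 5593, and 17909 for pre-cDC against GMP, where the main fit gave 17287. Leaving out dim probe sets (0.0298), the intensity trend (0.0412) or all but 1 probe set a gene (0.0309) also brought Ly9 under the threshold. With 2 arrays a group, and 1 array for each culture and time, small differences of dim probe sets such as Slamf1, Slamf6 and Slamf9 in progenitors rest on few arrays and on values near or below the array medians.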
